A study of Mus musculus with 2 samples.

Results

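The 7 genes described here belong to the major histocompatibility complex (MHC) class II pathway: H2-Aa, H2-Ab1, H2-Eb1, Cd74, Ciita, H2-DMa and H2-DMb1. They were chosen by name and matched by Ensembl identifier, and all 7 were among the 30406 genes that the matrices of both libraries shared. The RNA of single liver cells was captured in droplets (10x Genomics 3′ chemistry), giving a library of healthy liver and a library of liver injured by carbon tetrachloride (CCl4), a toxin activated in hepatocytes that was given repeatedly over weeks and scars the liver. Mice of both libraries carried Col1a2CreER and Rosa26tdTomato, a Cre driven by a collagen promoter and a red reporter, so the healthy mice carried the transgenes too. Whether a library pooled several animals was not given in the sources used here, and with 1 library per condition no test across animals was possible. Genes were measured in UMIs (unique molecular identifiers, which count captured RNA molecules), and a level was the UMIs of the gene summed over a cell class and scaled to 1000000 UMIs of all genes of that class (CPM).

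MHC class II molecules present peptides from the endosomal pathway to CD4 T cells. The alpha and beta chains are encoded by H2-Aa and H2-Ab1 for the I-A molecule, and H2-Eb1 encodes the beta chain of I-E. Only RNA was measured here, so counts of H2-Eb1 do not show that an I-E molecule was made. Cd74, the invariant chain, occupies the groove during transport, and the H2-DM heterodimer, encoded by H2-DMa and H2-DMb1, exchanges its remnant for peptide. Ciita, the class II transactivator, switches these genes on together without binding DNA itself, through RFX, CREB and NF-Y factors bound at the X and Y boxes of their promoters. B cells, dendritic cells and macrophages use the pathway constitutively, and many epithelial, mesothelial and endothelial cells can take it up under interferon gamma.

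The bases before 3 of the genes are printed to show matches to letters of the boxes through which the transactivator acts. Each stretch holds the 160 bases before the annotated gene start from RefSeq (build GRCm38.p6), 5′ to 3′ on the strand of the gene. Capitals mark exact matches to TGATTGG (the Y box, a CCAAT box) or ACNGATG (the end of the X box), both searched on both strands.
H2-Aa, chr17:34287824-34287983, minus strand: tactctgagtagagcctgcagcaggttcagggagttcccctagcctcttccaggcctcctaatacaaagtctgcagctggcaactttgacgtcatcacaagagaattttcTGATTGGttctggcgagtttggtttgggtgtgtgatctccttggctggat
H2-Eb1, chr17:34305707-34305866, plus strand: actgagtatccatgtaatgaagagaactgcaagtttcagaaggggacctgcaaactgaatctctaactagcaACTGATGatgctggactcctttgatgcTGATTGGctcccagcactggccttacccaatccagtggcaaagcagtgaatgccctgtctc
H2-DMb1, chr17:34153031-34153190, plus strand: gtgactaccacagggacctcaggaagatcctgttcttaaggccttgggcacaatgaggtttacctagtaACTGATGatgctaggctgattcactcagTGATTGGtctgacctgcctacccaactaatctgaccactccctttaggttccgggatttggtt

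In H2-Eb1 the X box match began 88 bases before the start and the Y box match 61 bases before it. In H2-DMb1 they began 91 and 63 bases before the start, so that both genes had the pair in the same order at a spacing of 27 and 28 bases. H2-Aa had the Y box match at 50 bases before the start. The X box letters were matched 232 bases before it, on the other strand, outside the printed stretch. That match was not shown to be the X box of H2-Aa, and an exact search misses a box with other letters. Neither of the 2 RefSeq starts of H2-DMa had a match in the 250 bases searched. Over the 32851 promoters of the same table and length, 7.23% held the Y box letters, 8.31% the X box letters and 0.588% held both. A match is a description of letters and says nothing about binding in these cells. H2-Ab1, Cd74 and Ciita had no entry.

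The filters left 5602 healthy and 7314 CCl4 cells, whose median depths were 6784 and 11876 UMIs, and 8 cell barcodes occurred among the kept cells of both libraries. Cells were clustered without the 7 genes and named from marker genes, so that no class was defined by class II. All classes below are named in this way and are therefore called "like". The study depleted CD45-positive cells per its methods, a step that removes immune cells and that the labels do not mention. The immune classes were small: 16 macrophage and monocyte-like cells, 1 B-like, 1 T and NK-like and 1 neutrophil-like cell were left in the healthy library, against 127, 71, 104 and 69 in the CCl4 library, which also held 61 plasmacytoid dendritic-like cells. The stromal and epithelial classes were unevenly split too, with 3343 healthy and 606 CCl4 endothelial-like cells, 1430 and 32 biliary-like, 235 and 1590 mesothelial-like, and 23 and 3215 stellate and mesenchymal-like cells. The labels call the samples whole liver cells, but the hepatocyte-like class held 322 healthy cells and 2 CCl4 cells. Different releases of the counting software with different gene lists made the matrices, and neither these nor the library itself can be told apart from the injury. Square brackets hold 95% intervals of the counting error alone.

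The UMIs of H2-Aa, H2-Ab1, H2-Eb1 and Cd74, the structural chains, were summed as a class II level. The healthy library held 6368 of these UMIs and the CCl4 library 39012. Most of them did not lie in the named immune classes, in cells from which the study had depleted immune cells. Of the healthy sum 28.5% was in the named immune classes, and of the CCl4 sum 32.8%. These classes held only 0.435% and 2.39% of the UMIs of all genes. Unnamed cells held 2.86% and 2.97% of the sums. Biliary-like cells held 59.1% of the healthy sum, beside 39.7% of the UMIs of all genes there. Mesothelial-like cells held 61.9% of the CCl4 sum, beside 33.6% of the UMIs of all genes. Healthy mesothelial-like cells held 6.08% of the healthy sum, and endothelial-like cells, the largest healthy class, held 2.80%. In the CCl4 library the stellate and mesenchymal-like class, the largest there, held 2.21% of the sum and the endothelial-like class 0.0897%.

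The order of the classes by level was led by immune cells in both libraries. In the CCl4 library the class II level was 17682 CPM [17142, 18235] in B-like cells, 9332 [9027, 9645] in plasmacytoid dendritic-like cells and 6407 [6234, 6585] in macrophage and monocyte-like cells. Mesothelial-like cells followed at 821 CPM [810, 831], above T and NK-like cells at 90.65 [64.5, 123.9]. Biliary-like cells at 32.9 [14.2, 64.8] and neutrophil-like cells at 32.75 [14.1, 64.5] could not be separated. Stellate and mesenchymal-like cells were at 17.8 CPM [16.6, 19.0] and endothelial-like cells at 8.69 [6.05, 12.08]. The 16 erythroid-like cells had 1 UMI of the sum.

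In the healthy library the class II level was 9099 CPM [8669, 9544] in the 16 macrophage and monocyte-like cells and 206 CPM [199.3, 212.5] in biliary-like cells. Mesothelial-like cells at 101 CPM [90.9, 111.2] and the 23 stellate and mesenchymal-like cells at 90.7 CPM [58.7, 133.9] had overlapping intervals. Endothelial-like cells at 9.64 CPM [8.275, 11.16] and hepatocyte-like cells at 6.505 CPM [3.855, 10.28] also overlapped. The biliary-like level was 31.6-fold [19.99, 53.4] that of hepatocyte-like cells of the same library, and the mesothelial-like level 15.5-fold [9.66, 26.39].

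**Figure D1:**
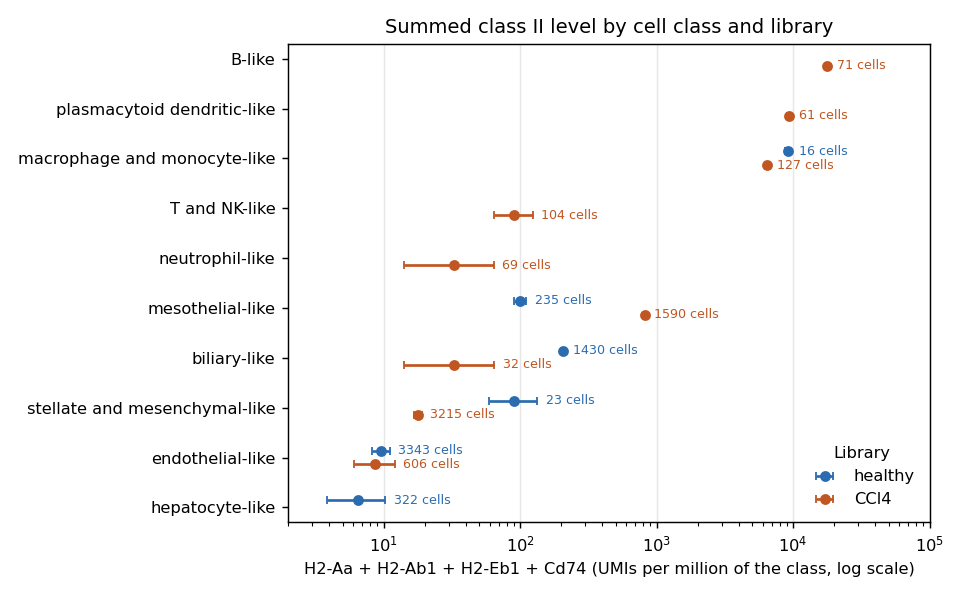
Level of H2-Aa, H2-Ab1, H2-Eb1 and Cd74 together in each class (x axis, CPM, log scale) for the healthy (blue) and CCl4 (orange) libraries, with exact Poisson 95% intervals as bars and the number of cells beside each point. Immune antigen-presenting classes lie at 6407 CPM or above, and CCl4 mesothelial-like cells at 821 CPM lie above the other non-immune points.

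All 7 genes were read in B-like, plasmacytoid dendritic-like and macrophage and monocyte-like cells. Among the classes of the CCl4 library, B-like cells had the highest levels of the structural chains, with 3825 CPM of H2-Aa, 2883 of H2-Ab1, 1452 of H2-Eb1 and 9522 of Cd74. They also had the highest level of Ciita there, 126.5 CPM [84.7, 181.7], against 26.4 [12.7, 48.6] in plasmacytoid dendritic-like and 38.5 [26.2, 54.6] in macrophage and monocyte-like cells. Of the 71 B-like cells, 70 had at least 10 UMIs of the sum, with a median of 58 and a highest value of 121. Of the 61 plasmacytoid dendritic-like cells, 58 reached 10 UMIs. The single healthy B-like cell had 137 UMIs of the sum. The class II genes were thus spread over nearly all cells of both classes.

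Macrophage and monocyte-like cells were split instead. Of the 127 CCl4 cells, 47 (37.0%) had at least 10 class II UMIs and held 98.0% of the class sum, while 45 had none. The class consisted of a cluster with 92 CCl4 and 5 healthy cells, which had 9 macrophage and monocyte markers beside 8 stellate and mesenchymal ones, and a cluster led by Vsig4, Clec4f and Timd4, genes of Kupffer cells (the resident macrophages of the liver). In the former, 37 CCl4 cells had at least 10 class II UMIs. Those cells had a median of 8997 UMIs of all genes and the others 1039, so that the split moved with depth, and its part in the result was not tested. Among dendritic cell genes, Flt3 had 7 UMIs in 5 of the 37 cells and Clec9a 4 UMIs in 3. Xcr1 had 14 and Cd209a 16 UMIs, each in 2 cells. The other 55 cells, at their lower depth, had 0 of each. Batf3, Wdfy4 and Itgax had 23, 19 and 18 UMIs in the 37 cells and 4, 3 and 5 in the other 55. The macrophage genes C1qa and Csf1r were each read in 28 of the 37 cells, and in 46 and 18 of the other 55. Dcn, a stellate cell gene, had 409 UMIs in 27 of the 37 cells. No cluster was named for conventional dendritic cells. The level of the macrophage and monocyte-like class fell from 6407 to 3226 CPM with a mitochondrial limit of 10%, under which 37 CCl4 cells with 3225 UMIs of the sum took the endothelial name.

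The Clec4f cluster held 11 healthy and 35 CCl4 cells. Its class II level was 11845 CPM in the healthy and 3099 CPM in the CCl4 cells, a ratio of 0.262 [0.242, 0.283]. Of the healthy cells 9 had at least 10 class II UMIs, and of the CCl4 cells 10. H2-Aa, H2-Ab1, H2-Eb1 and Cd74 had ratios from 0.245 to 0.288, H2-DMb1 0.314 [0.188, 0.522] and H2-DMa 0.612 [0.398, 0.951]. The level of Clec4f itself had a ratio of 0.326 and that of C1qa 0.575 in the same cells. Counting intervals do not cover the spread between such small numbers of cells.

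A further cluster of 58 CCl4 cells, unnamed under the naming rule and led by Ace, F13a1 and Vcan with 6 monocyte markers, had a class II level of 3346 CPM [3146, 3554]. Only 8 of its cells had at least 10 class II UMIs, and these held 94.7% of its sum. T and NK-like cells had 39 class II UMIs in 104 cells, of which 36 were Cd74, and 2 cells held 76.9% of them. H2-Aa and H2-Eb1 had 0 UMIs there. Neutrophil-like cells had 8 class II UMIs, never more than 1 in a cell. T and NK-like cells, neutrophil-like cells and hepatocyte-like cells serve below as classes that should lack the genes.

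Mesothelial cells, the flat lining of the liver surface, had the highest class II level outside the immune classes in the CCl4 library and the second highest, after biliary-like cells, among the non-immune classes of the healthy library. In the CCl4 library their levels were 66.5 CPM [63.6, 69.5] for H2-Aa, 135 [130.5, 138.9] for H2-Ab1, 49.5 [47.0, 52.1] for H2-Eb1 and 570.1 [561.5, 578.7] for Cd74. In the healthy library they were 11.7 [8.54, 15.66], 12.7 [9.43, 16.85], 4.16 [2.38, 6.76] and 72.0 [63.8, 81.0]. The 4 intervals of 1 library did not meet those of the other.

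H2-DMa, the alpha chain of the peptide exchanger, was at 12.1 CPM [10.9, 13.4] in the CCl4 and 3.12 [1.61, 5.45] in the healthy mesothelial-like cells. H2-DMb1, its beta chain, was at 31.1 CPM [29.1, 33.1] and 19.0 [14.9, 23.9]. Ciita was counted 36 times in 1590 CCl4 cells (1.22 CPM [0.857, 1.694]) and 3 times in 235 healthy cells (0.780 CPM [0.161, 2.280]), and these intervals overlapped.

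The CCl4 over healthy ratio in mesothelial-like cells was 8.155 [7.375, 9.04] for the summed class II level. It was 5.68 [4.23, 7.82] for H2-Aa, 10.6 [7.98, 14.3] for H2-Ab1, 11.9 [7.30, 20.9] for H2-Eb1 and 7.91 [7.03, 8.94] for Cd74. H2-DMa had a ratio of 3.88 [2.19, 7.57] and H2-DMb1 of 1.64 [1.29, 2.11], whose intervals did not meet. Ciita had a ratio of 1.57 [0.496, 7.96], an interval that holds 1. Of the 7 genes, 5 were at least 2 times higher in the CCl4 cells and 0 at least 2 times lower, where 13.2% and 15.5% of the 14146 genes with at least 10 UMIs passed these folds. The median log2 ratio was 2.51 over the 7 genes and -0.06 over all genes. The class rests on different clusters in the libraries, cluster 17 for 231 of the 235 healthy cells and clusters 6 and 7 for all CCl4 cells.

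**Figure D2:**
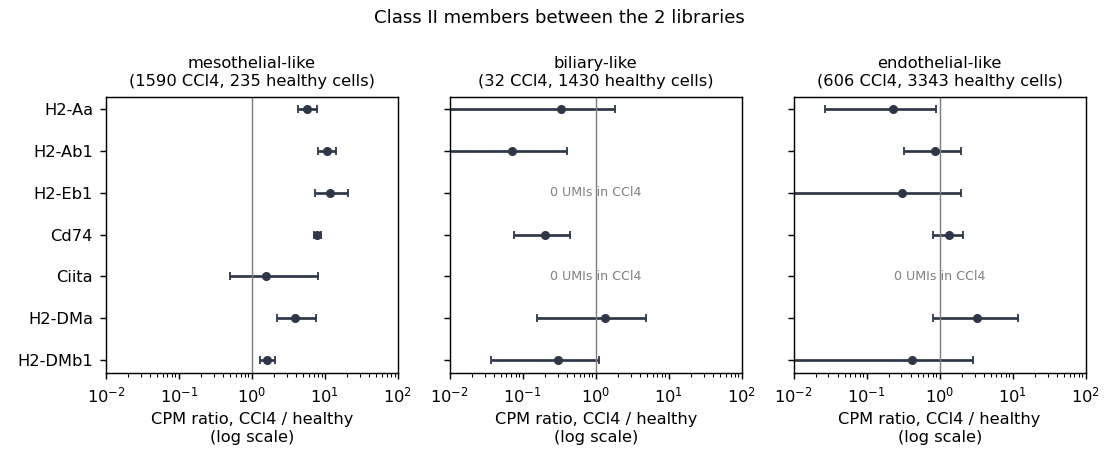
Ratio of the level (CPM) in CCl4 over healthy cells for each of the 7 genes (x axes, log scale, with 1 marked by a line) in mesothelial-like, biliary-like and endothelial-like cells. Points are ratios and bars their exact 95% intervals, cut at the left edge of the axis where they reach further, and genes with 0 UMIs in the CCl4 class are written as such. Structural chains are right of 1 in mesothelial-like cells and Cd74 and H2-Ab1 left of 1 in biliary-like cells.

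The CCl4 mesothelial-like cells were not uniform. Cluster 6 (879 cells) had 11 of the mesothelial markers and a class II level of 1307 CPM [1289, 1325]. Cluster 7 (711 cells) had 5 of the markers beside 4 stellate and mesenchymal ones and a level of 274 CPM [265.5, 283], still above the 100.3 CPM [90.5, 110.9] of healthy cluster 17. The level of cluster 6 was 4.77 times [4.61, 4.94] that of cluster 7. Cd74 differed by 6.29 times [6.01, 6.59], H2-Eb1 by 4.68, H2-Aa by 3.53, H2-DMa by 2.84, H2-Ab1 by 2.34 and H2-DMb1 by 2.03. Ciita was at 2.06 CPM in cluster 6 and 0.289 CPM in cluster 7, a ratio of 7.12 [2.53, 27.7].

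Of the 11 mesothelial markers used for naming, 9 were higher in cluster 6 than in cluster 7, from Wt1, a transcription factor (1.20 times), through Upk3b (5.82) and Msln (7.49) to Muc16 (10.06). Nkain4 (0.755 times [0.730, 0.780]) and Aldh1a2 (0.596 [0.552, 0.642]) were lower. Cd44, a surface partner of Cd74, went the other way with 12.3 CPM in cluster 6 and 238 CPM in cluster 7. B2m, the light chain of class I, differed by 1.05 times between them.

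**Figure D3:**
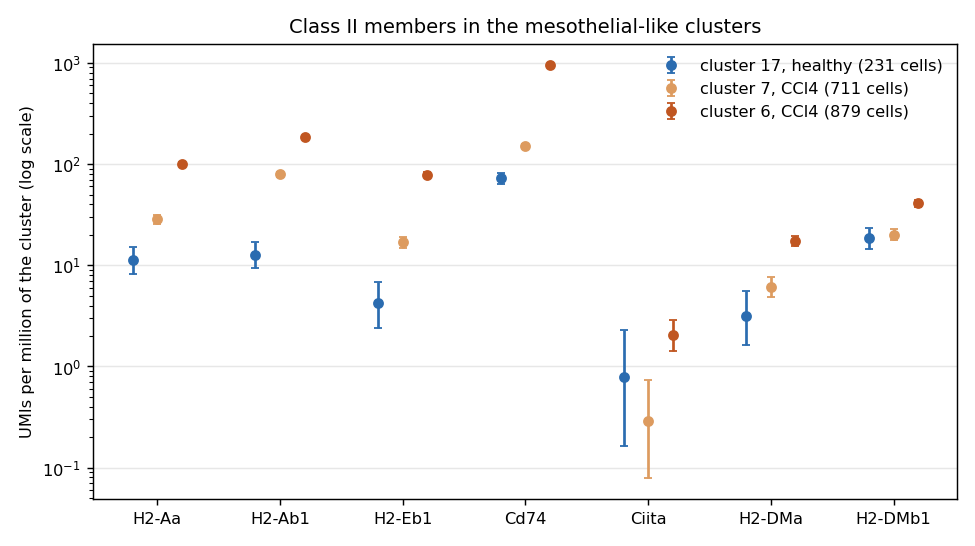
Level of the 7 genes (y axis, CPM of the cluster, log scale) in the healthy mesothelial-like cluster 17 (blue) and the CCl4 mesothelial-like clusters 7 (light orange) and 6 (dark orange), with exact Poisson 95% intervals. Cluster 6 is highest for all 7 genes in these counts, and the 3 intervals of Ciita are the widest.

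Within the class the UMIs were held by a subset of the cells. Of the 1590 CCl4 mesothelial-like cells, 528 (33.2%) had at least 10 class II UMIs and held 91.2% of the sum, and 431 (27.1%) had none. The median cell had 3 and the highest 536 class II UMIs. All 4 structural genes were counted together in 337 cells. In cluster 6 the share with at least 10 UMIs was 49.5% and in cluster 7 13.1%. In the healthy class 10 of 235 cells (4.26%) reached 10 UMIs, and the highest cell had 44.

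UMIs of immune genes were about as frequent in the high cells as in the others. A UMI of any of 14 immune reference genes, among them Ptprc, Tyrobp and Lyz2, was found in 15.7% of the 528 high cells and in 15.1% of the remaining mesothelial-like cells, and Ptprc in 2 of the 528. Their median depth was 18755 UMIs, close to the 18144 of the class. Without any cell that held such a UMI, the class II level was 852 CPM in the 1347 CCl4 cells left and 104 CPM in the healthy ones.

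**Figure D4:**
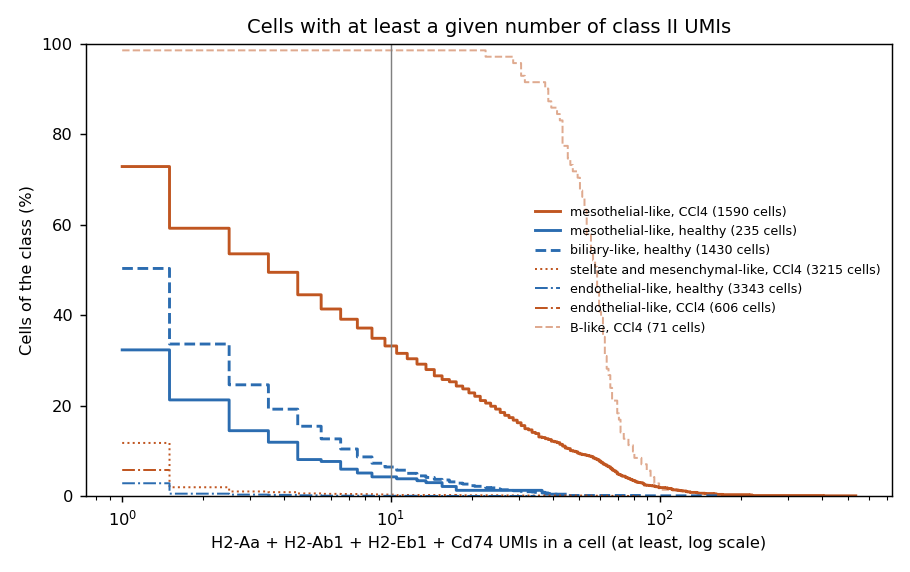
Share of the cells of a class (y axis, percent) with at least a given number of UMIs of H2-Aa, H2-Ab1, H2-Eb1 and Cd74 together (x axis, log scale), with a line at 10 UMIs. CCl4 mesothelial-like cells decline slowly with 33.2% at 10 UMIs, biliary-like and healthy mesothelial-like cells lie lower at 6.43% and 4.26%, and endothelial-like and stellate and mesenchymal-like cells stay near the x axis from 2 UMIs on.

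When mesothelial-like cells of the CCl4 library were ordered by their class II UMIs per 10000, H2-DMa, H2-DMb1 and Ciita were highest in the highest group. In the 431 cells with none, the 577 with less than 5 and the 582 with 5 or more, H2-DMa was at 1.635, 3.585 and 28.9 CPM and H2-DMb1 at 16.9, 24.6 and 47.8 CPM. Ciita had 0 UMIs in the cells with none and was at 0.489 and 2.88 CPM in the other two groups. B2m was at 734, 849 and 1102 CPM over the same groups, and Cd44 at 183, 146 and 43.6 CPM. The endosomal protease Lgmn did not follow this order, at 189.8, 201 and 198 CPM. The groups were made from the summed class II UMIs, so these values describe how the other genes lie beside them.

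Biliary cells line the bile ducts. In the healthy library their levels were 12.4 CPM [10.9, 14.2] for H2-Aa, 56.7 [53.3, 60.3] for H2-Ab1, 16.1 [14.3, 18.03] for H2-Eb1 and 120.5 [115.6, 125.7] for Cd74. H2-DMa was at 6.18 CPM [5.10, 7.43] and H2-DMb1 at 27.3 [25.0, 29.8]. Ciita was at 2.08 CPM [1.47, 2.85], counted 38 times in 29 of the 1430 cells. The class II sum was at least 1 UMI in 720 cells (50.35%) and at least 10 in 92 (6.43%), and these 92 held 52.7% of it. Of the 92 cells, 3 had an immune reference UMI (3.26%, against 3.51% of the other biliary-like cells) and 0 had Ptprc. The highest cell had 165 class II UMIs and 53 cells had all 4 structural genes.

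Ordered by class II UMIs per 10000, the 710 biliary-like cells with none had 1.39 CPM of H2-DMa, the 569 with less than 5 had 4.75 and the 151 with 5 or more had 32.7. H2-DMb1 was at 18.7, 27.9 and 58.7 CPM, and Ciita at 1.66, 1.405 and 7.199 CPM. Psmb9, a subunit of the interferon-inducible proteasome, was at 70.0, 85.8 and 135 CPM, while Epcam, an epithelial surface protein, stayed between 1194 and 1250 CPM. H2-DMb1 was thus read in biliary-like cells without a UMI of the structural chains.

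The CCl4 library held only 32 biliary-like cells, with 8 class II UMIs of which 6 were Cd74 and with 0 UMIs of H2-Eb1 and Ciita. The level of 32.9 CPM [14.2, 64.8] was 0.1599 times [0.069, 0.315] that of the healthy class. Cd74 had a ratio of 0.205 [0.075, 0.446] and H2-Ab1 of 0.0725 [0.0018, 0.405]. Among the 7 genes 4 were at least 2 times lower and 0 at least 2 times higher, where 11.5% and 7.42% of 13418 genes were. Their median log2 ratio was -1.595, and that of all genes was 0. For both, a gene at 0 UMIs was raised to 3 UMIs, and its ratio was set to 1 where this turned its direction. Ciita was set to 1 in this way. With only 32 CCl4 cells, the shares and the median of all genes depend on this rule and are not a neutral background. For H2-Aa, H2-DMa, H2-DMb1 and Ciita the interval of the ratio held 1, and for H2-Eb1, at 0 UMIs, it reached 0.949.

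Endothelial-like cells had low levels in both libraries. The healthy class was at 1.48 times [0.911, 2.558] the summed level of hepatocyte-like cells. The CCl4 class was at 0.0959 times [0.0590, 0.1553] that of T and NK-like and 0.265 times [0.121, 0.662] that of neutrophil-like cells. In the healthy library 178 class II UMIs were counted in 3343 cells, with 2.17 CPM of H2-Aa, 2.004 of H2-Ab1, 0.812 of H2-Eb1 and 4.66 of Cd74. The CCl4 library had 35 in 606 cells, with 0.497, 1.74, 0.248 and 6.21 CPM, and no cell there had more than 1. The ratio of the summed level was 0.9015 [0.609, 1.301]. Of the 6 genes with at least 10 UMIs, 1 was at least 2 times higher (H2-DMa, with 5 CCl4 and 7 healthy UMIs) and 3 at least 2 times lower (H2-Aa, H2-Eb1 and H2-DMb1), where 8.0% and 17.9% of 13090 genes were. H2-Aa alone had an interval below 1, with a ratio of 0.229 [0.027, 0.884] from 2 CCl4 UMIs. Of its 40 healthy UMIs, 19 lay in the 78 cells of cluster 21, described below, and the highest healthy endothelial-like cell held 11. The median log2 ratio was -0.73 over these 6 genes and -0.28 over all genes. The healthy class lay in clusters 2, 5, 11, 14 and 21 and the CCl4 class mostly in cluster 8. Of the immune reference genes described below, 5 of the 10 with enough UMIs were at least 2 times higher in the CCl4 endothelial-like cells and 1 was lower, beside the same 8.0% and 17.9% of all genes.

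The healthy endothelial UMIs were not evenly spread over the clusters. Cluster 21 (78 cells, led by Nts, Selp and Vwf among others) had 109 CPM [84.6, 138.6] of the class II sum, against 4.96 to 11.5 CPM in the other clusters of the class with at least 50 healthy cells. Of its 67 UMIs 2 cells held 68.7%, and both had at least 3 UMIs of mesothelial markers, as had 55.3% of the other cells of the cluster. An unnamed cluster of 205 healthy cells led by Gja5 and Nrg1, with 10 endothelial markers, had 109.5 CPM [94.1, 126.7], and 4 of its cells held 77.2% of its 180 UMIs. These 4 cells had 0 immune reference UMIs, a median of 55.5 endothelial marker UMIs, and 1 of the 4 had at least 3 biliary marker UMIs. The level of the class depended on which cells joined it. It was 9.64 CPM as given, 17.4 with 10 principal components and 17.8 at a Leiden resolution of 2. The log2 ratio then went from -0.15 to -0.94 and -1.01, and it was 0.905 without removal of doublets and 5.57 with a mitochondrial limit of 10%, where 37 CCl4 cells with 16 endothelial and 11 macrophage and monocyte markers took the endothelial name.

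Stellate and mesenchymal-like cells, the collagen-producing cells of the liver, had 861 class II UMIs in 3215 CCl4 cells. H2-Aa was at 1.985 CPM, H2-Ab1 at 3.56, H2-Eb1 at 1.47 and Cd74 at 10.8. Ciita had 0 UMIs in all 3215 cells, which allows a level of up to 0.0620 CPM. A class II UMI was found in 378 cells (11.8%), but only 11 cells had at least 10. These 11 held 44.4% of the sum, 10 of the 11 had an immune reference UMI and 3 had Ptprc, against 39.1% of the other cells with such a UMI. Cluster 15 (247 cells) had 82.1 CPM [74.3, 90.5], against 8.17 CPM in cluster 1 and 13.5 in cluster 3. In cluster 15 7 cells had at least 10 class II UMIs, at a median depth of 41551 UMIs against 16572 in its other cells. Of these 7, 6 had at least 3 UMIs of mesothelial markers. An immune reference UMI was found in 6 of the 7 and in 32.1% of the other cells. Of the 53 cells with 1 to 9 class II UMIs 69.8% had that many mesothelial UMIs, and of the 187 without class II 19.25%. The part of depth, of mesothelial or immune RNA or of doublets in these cells was not tested.

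The 23 healthy stellate and mesenchymal-like cells had 25 class II UMIs in 5 cells, 16 of them Cd74, with at most 9 in a cell. Their level of 90.7 CPM was above that of the CCl4 class, but rests on those 5 cells. Hepatocyte-like cells of the healthy library had 18 class II UMIs in 322 cells, 12 of them Cd74, and 0 UMIs of H2-Eb1, Ciita and H2-DMa. An unnamed cluster of 327 CCl4 cells with hepatocyte markers and few UMIs had 19 class II UMIs.

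The share of cells with a class II UMI depends on depth and on free RNA in the droplets. It was 72.9% [70.6, 75.1] in CCl4 and 32.3% [26.4, 38.7] in healthy mesothelial-like cells, at medians of 18144 and 18285 UMIs per cell. It was 50.35% [47.7, 53.0] in healthy biliary-like cells at a median of 11210 UMIs. After each cell was thinned to 2000 UMIs the shares were 45.3%, 11.1% and 22.15%. Cells with fewer UMIs were left out of this, 74, 6 and 80 of these classes. In the classes that should lack the genes the thinned share was 2.45% in hepatocyte-like cells of the healthy library, and 5.83% in T and NK-like and 6.64% in neutrophil-like cells of the CCl4 library. Their unthinned shares were 4.97%, 9.62% and 11.6%, at median depths of 2946, 4011 and 2293 UMIs. Of these cells 121, 9 and 21 were left out of the thinning. Endothelial-like cells had thinned shares of 1.165% [0.8003, 1.636] in the healthy and 1.84% [0.877, 3.375] in the CCl4 library, and CCl4 stellate and mesenchymal-like cells of 2.055% [1.592, 2.608]. These were not above the shares of the classes that should lack the genes, with intervals that overlapped those of hepatocyte-like cells (up to 5.656%) and of T and NK-like cells (from 2.062%). The thinning left out 557, 73 and 17 of these cells.

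Free RNA from 1 source keeps its genes in the same proportion in every class. The level of each gene in a non-immune class was therefore divided by its level in the macrophage and monocyte-like, plasmacytoid dendritic-like and B-like cells of the same library. This was done for the class II genes and for the 14 immune reference genes. The comparison took immune cells as the only source, although most class II UMIs lay outside them. Free RNA from mesothelial-like or biliary-like cells was not tested. In CCl4 mesothelial-like cells the reference genes lay between 0.0334% and 0.1495% of their immune level (median 0.0826%). The class II genes lay between 2.47% (Ciita) and 26.0% (H2-DMb1), with 11.95% [11.6, 12.3] for Cd74, 7.705% for H2-Ab1, 7.185% for H2-Eb1 and 3.67% for H2-Aa. All 7 were above each reference gene. The reference genes themselves lay between 0.102 CPM (Cd37) and 4.69 CPM (Lyz2) in the CCl4 and between 0 and 1.56 CPM in the healthy mesothelial-like cells. Of the 10 with enough UMIs, 2 were at least 2 times higher in the CCl4 cells, Lyz2 with 138 against 6 UMIs and C1qa with 65 against 1, and 0 were lower, beside 13.2% and 15.5% of all genes. Ptprc had 11 UMIs in the CCl4 and 0 in the healthy cells.

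In healthy biliary-like cells the highest reference gene was at 0.115% and the 6 class II genes with enough UMIs in the immune source lay between 0.768% (H2-Aa) and 12.25% (H2-DMb1). In healthy mesothelial-like cells the highest reference gene was at 0.223% and the 6 genes lay between 0.700% (H2-Eb1) and 8.52% (H2-DMb1). The healthy immune source was only 17 cells, and the CCl4 source 259.

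In endothelial-like cells taken as a whole the values of the class II and the reference genes overlapped. The class II genes lay between 0.0830% and 0.267% in the healthy and between 0% and 0.444% in the CCl4 class. Their medians were 0.135% and 0.0995%, beside medians of 0.101% and 0.242% for the reference genes. Fcer1g, at 9.025% and 10.8%, and Cd37 stood out among the reference genes of endothelial-like cells. Healthy cluster 21 had a class II median of 1.18% beside a reference median of 0.184%. The unnamed cluster led by Gja5 and Nrg1 had 2.16% beside 0.0442% in its healthy cells. Fcer1g, at 8.915% and 3.455%, was above each class II gene in both, and few cells held most of their class II UMIs. Their 18 and 27 CCl4 cells had class II medians of 0%. In CCl4 stellate and mesenchymal-like cells the class II genes had a median of 0.213% and the reference genes of 0.120%, and H2-DMb1 at 2.51% was above each reference gene. H2-DMb1 had the highest value of the class II genes in 5 of the 6 populations plotted, CCl4 endothelial-like cells being the exception.

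**Figure D5:**
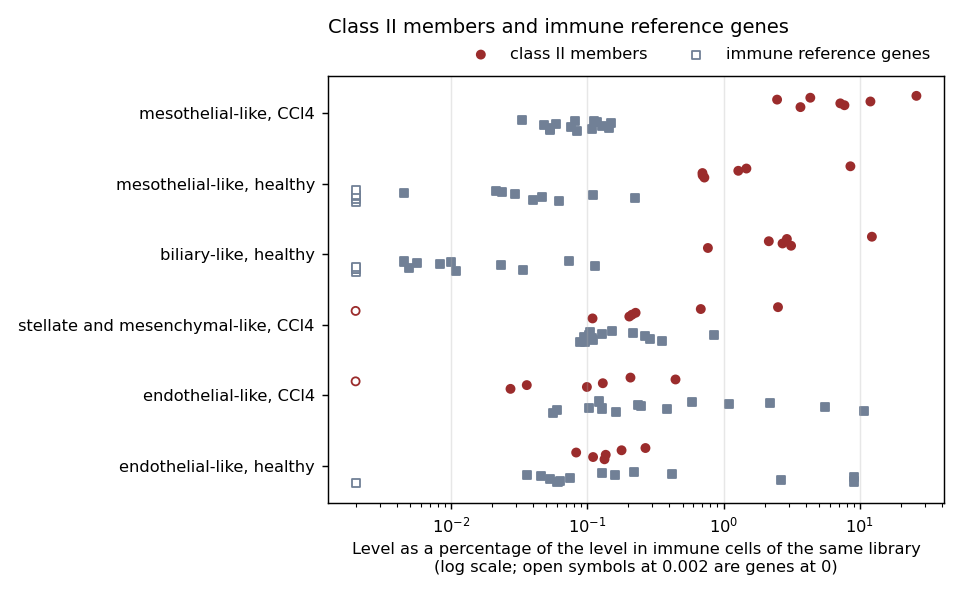
Level of each gene in 6 populations as a percentage of its level in the immune cells of the same library (x axis, log scale), for the class II genes (red circles) and the 14 immune reference genes (grey squares). Open symbols at the left edge are genes with 0 UMIs. Class II genes lie right of all reference genes in mesothelial-like and biliary-like cells and among them in healthy endothelial-like cells. In CCl4 endothelial-like cells H2-Aa, H2-Eb1 and Ciita lie left of all reference genes and the others among them.

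The make-up of the class II UMIs differed between cell classes. UMIs are counted at the 3′ end, once for each molecule, and the shares are compared between classes and not between genes. H2-Aa gave 21.6% of the structural UMIs in B-like, 19.3% in plasmacytoid dendritic-like and 19.5% in CCl4 macrophage and monocyte-like cells. It gave 8.10% in CCl4 and 11.6% in healthy mesothelial-like cells and 6.04% in healthy biliary-like cells. Cd74 gave 69.5% and 71.6% in CCl4 and healthy mesothelial-like cells, against 53.85% in B-like, 56.25% in plasmacytoid dendritic-like and 58.6% in biliary-like cells, the last close to the 57.7% of healthy macrophage and monocyte-like cells. The 178 UMIs of healthy endothelial-like cells held 22.5% [16.6, 29.3] H2-Aa and 48.3% [40.8, 55.9] Cd74, intervals that included the 19.5% and 49.8% of CCl4 macrophage and monocyte-like cells. In biliary-like cells H2-Ab1 gave 27.6%, more than in B-like (16.3%) or mesothelial-like cells (16.4% CCl4, 12.7% healthy). Within the CCl4 mesothelial-like class cluster 7 had 28.8% of H2-Ab1 and cluster 6 14.1%.

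The chains of H2-DM also had different proportions. There were 4.42 UMIs of H2-DMb1 for each UMI of H2-DMa [3.59, 5.47] in biliary-like cells, 2.57 [2.27, 2.91] in CCl4 and 6.08 [3.28, 12.3] in healthy mesothelial-like cells. The ratio was 0.531 [0.414, 0.676] in CCl4 macrophage and monocyte-like cells, 0.4495 [0.314, 0.635] in plasmacytoid dendritic-like cells and 0.178 [0.097, 0.305] in B-like cells. B-like cells had H2-DMb2, a close copy of H2-DMb1, at 1 UMI for each UMI of H2-DMa, and the other classes at 0.119 or less. H2-DMb1 and H2-DMb2 are nearly alike in sequence, so reads could be split between them and both counts are uncertain.

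Of 12 further genes of antigen presentation 10 were on both gene lists, and in mesothelial-like cells 3 had enough UMIs for a ratio, of which 1 was at least 2 times higher and 0 were lower, beside 13.2% and 15.5% of all genes. That gene was Lgmn, an endosomal protease, at 198 CPM in CCl4 and 81.7 CPM in healthy mesothelial-like cells (2.42 [2.16, 2.72]). It was higher still in endothelial-like cells, at 797 CPM in the healthy and 346 CPM in the CCl4 library. Ctss, the protease that trims the invariant chain in professional presenting cells, was at 1.43 CPM in CCl4 mesothelial-like cells and 0 UMIs were counted in the healthy ones, against 2057 CPM in CCl4 macrophage and monocyte-like cells. The costimulatory Cd86 had 0 UMIs in both mesothelial-like groups and was at 96.8 CPM in CCl4 macrophage and monocyte-like and 65.4 in B-like cells. The inhibitory H2-DO chains H2-Oa and H2-Ob were at 201 and 327 CPM in B-like cells and had 1 UMI each in CCl4 mesothelial-like cells. Cd40, another costimulatory receptor, had 4 UMIs in CCl4 mesothelial-like and 429 in CCl4 stellate and mesenchymal-like cells (8.87 CPM).

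Of the 7 genes for factors that bind class II promoters, 0 were 2 times higher or lower in mesothelial-like cells, beside 13.2% and 15.5% of all genes. Their ratios ran from 0.624 (Rfxank) to 1.31 (Rfx5). In endothelial-like cells 0 of 7 passed that fold as well, beside 8.0% higher and 17.9% lower over all genes. In biliary-like cells, where the 32 CCl4 cells had 0 to 18 UMIs of each, 3 of 7 were lower, beside 11.5% of all genes. Rfx5 was at 11.9 CPM in CCl4 mesothelial-like, 9.265 in stellate and mesenchymal-like and 10.7 in endothelial-like cells, where Ciita was at 1.22, 0 and 0 CPM.

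Interferon gamma itself (Ifng) was at 472 CPM in T and NK-like cells and had 0 UMIs in mesothelial-like cells of either library. Of the 8 genes of this axis with enough UMIs in mesothelial-like cells, 1 was at least 2 times higher and 1 at least 2 times lower. Over all genes these shares were 13.2% and 15.5%. The higher gene was Irf8, with 164 CCl4 and 1 healthy UMI, and the lower was the receptor gene Ifngr1 (0.389 [0.350, 0.433]). Irf8 was at 1.86 CPM in cluster 6 and 9.74 CPM in cluster 7, where the class II level was lower. Irf1, a transcription factor induced by interferon gamma, had a ratio of 0.5575 [0.487, 0.640].

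In mesothelial-like cells 8 of the 9 class I ratios were below 1, with intervals that held 1 for Tap1 and Nlrc5. B2m had a ratio of 0.526 [0.512, 0.540], H2-K1 of 0.591 and H2-D1 of 0.562. Of the 9 class I genes 1 was 2 times higher (Psmb8, 2.70 [2.39, 3.06]) and 1 was 2 times lower (Tapbp, 0.4165 [0.394, 0.441]), with a median log2 ratio of -0.76, beside 13.2% and 15.5% of all genes and their median of -0.06. In endothelial-like cells 6 of 9 were 2 times lower and 0 higher, with a median of -1.21, beside 17.9% and 8.0% of all genes and their median of -0.28.

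Of the partners of Cd74 at the cell surface, Cd44 was 6.07 times [4.83, 7.73] higher in CCl4 mesothelial-like cells, at 118 against 19.5 CPM, and lay mostly in cluster 7, where Cd74 was lower. Mif, a ligand of Cd74, was at 432 and 224 CPM (1.93 [1.80, 2.07]), and Cxcr4 had 1 UMI and 0 UMIs.

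Across the 12 combinations of class and library with at least 50 cells, the gene whose level was most like the class II sum was Ly86 (Pearson r = 0.888 of log2 levels, over 7378 genes). Gm6377, Arl5c, Cd180, Fgd2, Cd72, Blnk, Irf5, Tnfrsf13b and Ms4a4c followed, down to r = 0.842. Each of the 10 had its highest level in B-like, plasmacytoid dendritic-like or macrophage and monocyte-like cells of the CCl4 library. The combinations share 2 libraries, and r is a description of them.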

How the data were processed

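The deposited values are raw UMI counts of each gene in each called cell, which the authors did not normalize. Their headers name Cell Ranger 3.1.0 for the healthy (31053 genes) and 6.0.1 for the CCl4 matrix (32285 genes). The submitters' processing notes name both mm10 and GRCh38 as builds, and the gene identifiers are those of mouse. The healthy file held 6297 cells and 51122846 UMIs, the CCl4 file 8460 cells and 97611831 UMIs.

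The 7 genes, the lists and the settings were chosen with earlier results of these data known. Cells with at least 500 UMIs, 200 genes and at most 30% mitochondrial UMIs were kept. Doublets were removed by Scrublet score up to 0.8% per 1000 cells (277 healthy and 487 CCl4 cells). Clustering (scanpy 1.11.5, igraph 0.11.9) used 2000 variable genes without the class II genes, 30 principal components, 20 neighbours and Leiden resolution 1, and immune clusters were clustered again with 15 components. A class needed 3 markers at 2 times the mean of the other clusters in at least 10% of cells. A cluster stayed unnamed where markers of another class prevailed among its 10 leading genes, or where it had few UMIs and no leading marker. Named genes were the 7 class II genes, the fixed lists, and the 10 genes most like the summed level in log2(CPM + 10), among genes with 50 CPM in at least 1 combination.

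Levels were summed counts as CPM with exact Poisson intervals, shares had exact binomial (Clopper-Pearson) intervals, and ratios exact conditional binomial ones. Ratios were read against all genes with at least 10 UMIs, with a 0 raised to 3 UMIs. Where raising a 0 turned the direction of a gene, its ratio was set to 1. With 1 library per condition no p-value was computed. The ratio and its interval were tested on simulated Poisson counts, the model that the interval assumes. The simulation therefore does not show whether the intervals hold where few cells hold most of the UMIs. Alternatives were another number of components, separate clustering, resolution 2, a mitochondrial limit of 10%, doublets kept, equal weight for every cell, removal of cells with an immune reference UMI, and thinning to 2000 or 1000 UMIs.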

Additional observations from a re-analysis of the deposited data

Results flagged for a closer look

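The CCl4 over healthy ratio of the summed level of H2-Aa, H2-Ab1, H2-Eb1 and Cd74 pointed in opposite directions in 2 classes. It was 8.155 [7.375, 9.04] in mesothelial-like cells and 0.1599 [0.069, 0.315] in biliary-like cells, of which the CCl4 library held 32. The difference between the classes was not tested, since each condition had 1 library.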

How the results depend on the processing

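Of 117 values under an alternative, 73 stayed within the counting interval of the reported value and 44 did not. A reversal could be called only for the mesothelial-like and biliary-like log2 ratios, whose intervals left out 0, and 0 of their values reversed. The endothelial-like log2 ratio, whose interval held 0, changed sign under some alternatives. The levels of B-like and plasmacytoid dendritic-like cells stayed within it under all alternatives run for them. So did the level of CCl4 biliary-like cells (32.4 to 40.26 CPM) and their log2 ratio to the healthy class (-2.655 to -2.374, from -2.645), which were put under the 7 alternatives of clustering, filter and weighting after seeing the data. With 10 principal components the summed level was 17.36 CPM in healthy endothelial-like, 781.1 in CCl4 mesothelial-like and 12.53 in CCl4 stellate and mesenchymal-like cells, and the endothelial log2 ratio -0.9411. With each library clustered on its own, the CCl4 levels were 19.5 CPM in stellate and mesenchymal-like and 4930 in macrophage and monocyte-like cells. At Leiden resolution 2 the healthy endothelial level was 17.8 CPM and the log2 ratio -1.012.

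With a mitochondrial limit of 10% the levels were 15.65 CPM in healthy endothelial-like, 199.2 in healthy biliary-like, 743.7 in CCl4 endothelial-like, 19.46 in CCl4 stellate and mesenchymal-like and 3226 in CCl4 macrophage and monocyte-like cells, with an endothelial log2 ratio of 5.571. With doublets kept these were 18.26, 194.4, 34.19, 22.04 and 5581 CPM and 0.905. Other alternatives chosen after seeing the data took endothelial-like cells from first-round clusters alone. They gave 15 CPM in healthy cells and a log2 ratio of -0.9198 under the mitochondrial limit, and 17.59 CPM and -0.731 with doublets kept. With every cell weighing the same, the CCl4 levels were 14.81 (endothelial-like), 846.1 (mesothelial-like), 13.85 (stellate and mesenchymal-like) and 6010 (macrophage and monocyte-like), and the log2 ratios 0.5607 (endothelial-like) and 3.214 (mesothelial-like). Without cells that held an immune reference UMI the CCl4 levels were 852.1 (mesothelial-like) and 11.63 CPM (stellate and mesenchymal-like).

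Thinning to 2000 and to 1000 UMIs gave shares of cells with a UMI of the sum of 1.165% and 0.807% (healthy endothelial-like), 22.15% and 14.03% (healthy biliary-like), 11.08% and 6.687% (healthy mesothelial-like), 1.839% and 1.211% (CCl4 endothelial-like), 45.3% and 34.45% (CCl4 mesothelial-like), and 2.055% and 1.13% (CCl4 stellate and mesenchymal-like). Thinning itself lowers such a share. The cause of the other shifts was not tested, except that the endothelial values moved with the cells that took that name. The hepatocyte-like class under the mitochondrial limit and the T and NK-like class with doublets kept gave no value, since their clusters stayed unnamed.

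No paired analysis was possible because each condition had 1 library. The number of cells limits the values of the 32 CCl4 biliary-like and the 23 healthy stellate and mesenchymal-like cells.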
